A study of Drosophila melanogaster with 6 samples.

Results

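The contractile genes described here are 10 genes of the sarcomere, the repeating contractile unit of muscle, and of troponin, the calcium switch on its thin filament. They were taken by gene name from a table of 13541 genes measured in heads of adult Drosophila melanogaster, and all 10 were present and tested. Heads of miR-210 mutant flies (labelled M22-3), miR-210 being a microRNA, were compared with heads of the w1118 control strain, with 3 samples in each group. The labels give no age, sex or allele, nor whether the samples were collected from separate flies, so the p-values cover the spread among these 6 samples, and part of it may be technical. The values are the authors' mean normalized counts for each group, meaning read counts divided by a size factor per library, with the authors' own fold changes and p-values.

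In a sarcomere, thick filaments of myosin pull on thin filaments of actin. Tropomyosin lies along the actin and, at rest, covers the sites that myosin binds. Troponin T holds troponin to tropomyosin, troponin I holds the switch off, and troponin C turns it on when it binds calcium. Flies use different genes for the same part in different muscles. The fibrillar flight muscles of the thorax use the actin gene Act88F and the troponin C gene TpnC4, while tubular muscles, the kind found in the head, use others such as Act57B.

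In mutant heads the troponin C gene TpnC41C was the gene that fell by the authors' test, to 571 from 1154 in the authors' means, 2.02-fold lower. A second test, limma on the single-library values described below, did not call it (adjusted p = 0.13). The other 9 genes did not pass the authors' test at an adjusted p under 0.05. Among these, the troponin T gene up and the light chain gene Mlc1 had means 1.39-fold and 1.35-fold lower in the mutant, while the myosin heavy chain gene Mhc and the actin gene Act57B had means 1.15-fold and 1.01-fold those of the control. So 1 of 10 genes changed, and it was lower, where 4.46% of 11155 tested genes changed in either direction and 1.89% were lower. The median log2 fold change of the 10 genes was -0.36, against -0.04 for all tested genes, and 8 of the 10 were negative, against 54.2% of tested genes. In bulk tissue, fewer muscle cells and less RNA per muscle cell cannot be told apart.

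Single-library values were worked out from the group means, which are built from whole reads and 3 library-specific steps. This gave all 6 libraries for 6 of the 10 genes, TpnC41C, TpnC4, up, Mlc1, Tm2 and Act88F, and only the mutant libraries for Tm1. For Mlc2 and Act57B more than 1 combination of reads gave the same mean, and Mhc was too abundant to search, so these have authors' means only. Within a group the size factor orders the libraries as deepest, middle and shallowest. Reads in the recovered genes of the table were between 7568589 and 10747221 per mutant library and between 10432021 and 18748173 per control library. The deepest library of each group stood apart from the others: summed normalized counts of 5 neuron markers were 22438 in the deepest mutant library against 10206 and 7644 in the others, and 37798 in the deepest control library against 14447 and 14670. Some long muscle genes did likewise, such as sls, with 8531 in the deepest mutant library against 3778 and 3232. The 3 titin-like and M-line genes (median exon length 28019) had a median log2 ratio, deepest over other libraries, of 1.28 (mutant) and 1.44 (control). For the 6 recovered genes it was -0.10 and -0.26, and for all recovered genes tested -0.01 and -0.01. The cause was not tested. Results are therefore also given for the deepest library of each group (the deepest pair) and for the other 4.

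The troponin C genes encode the calcium sensor. TpnC41C lies on 2R from 5065237 to 5070210 on the minus strand (dm6), with 1880 bases of exon. Its normalized counts in the mutant were 639 in the deepest, 502 in the middle and 571 in the shallowest library, from 622, 415 and 384 reads. In the control they were 858, 1349 and 1255, from 1477, 1450 and 1260 reads. Every mutant library was below every control library, and the deepest control library was the nearest to the mutant. The means were 571 ± 68.5 and 1154 ± 261 (SD, n = 3). The authors' deposited table lists a log2 fold change of -1.01, with an adjusted p of 0.0046. limma on the recovered libraries gave a log2 difference of -0.99 ± 0.22 (SE) and did not call it, with an adjusted p of 0.13, the range over 15 limma fits being 0.00181 to 0.447. Within the deepest libraries the log2 ratio was -0.42, and within the other 4 it was -1.28. With the deepest libraries as a term in limma the adjusted p was 0.00415, in a fit that called 16.7% of genes. With both left out it was 0.00181, in a fit that called 7.13% of genes.

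TpnC4, the troponin C gene of flight muscle, lies on 2R from 5503437 to 5507866 on the minus strand, with 849 bases of exon. It was barely detected, with 1, 3 and 5 reads in the deepest, middle and shallowest mutant libraries, against 24, 4 and 3 in those of the control. The normalized counts were 1.03, 3.63 and 7.44 in the mutant and 13.9, 3.72 and 2.99 in the control. The groups overlapped, and 1 library, the deepest control, held most of the control reads. The authors' deposited table lists a log2 fold change of -0.85 with an adjusted p of 0.913. The log2 ratio was 0.27 with that library left out, so no difference was detectable at this depth and the sign rests on that library.

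The troponin T gene up (X from 13593474 to 13602578, minus strand) had normalized counts of 8348, 8528 and 9277 in the mutant libraries, again from deepest to shallowest. Its control libraries had 10535, 13590 and 12152. The groups did not overlap, with means of 8717 ± 493 and 12092 ± 1529 (SD, n = 3). For up the authors' deposited table has a log2 fold change of -0.47 and an adjusted p of 0.14, short of the threshold. limma gave -0.47 ± 0.16 (SE) with an adjusted p of 0.329, 0.0115 with the deepest libraries as a term, and 0.0522 with both left out, where the call was lost. The log2 ratio was -0.34 within the deepest pair and -0.53 within the other 4.

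Of the 6 recovered genes, 2 (TpnC41C and up) had mutant libraries that all lay below the control libraries. The same held for 9.13% of the 10919 tested genes recovered. No recovered gene of the 6 had all mutant libraries above the control, which 9.4% of those tested genes had. In the control, the deepest library had the lowest value of the group for 4 of the 6 genes (TpnC41C, up, Mlc1 and Tm2). In the mutant it did so for 3 of the 6 (up, Mlc1 and TpnC4). It had the highest value for 2 of the 6 in each group. Among 51 other recovered sarcomere and muscle genes, it was the lowest for 16 in the control and 12 in the mutant. For these genes it was the highest for 28 and 32.

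**Figure D1:**
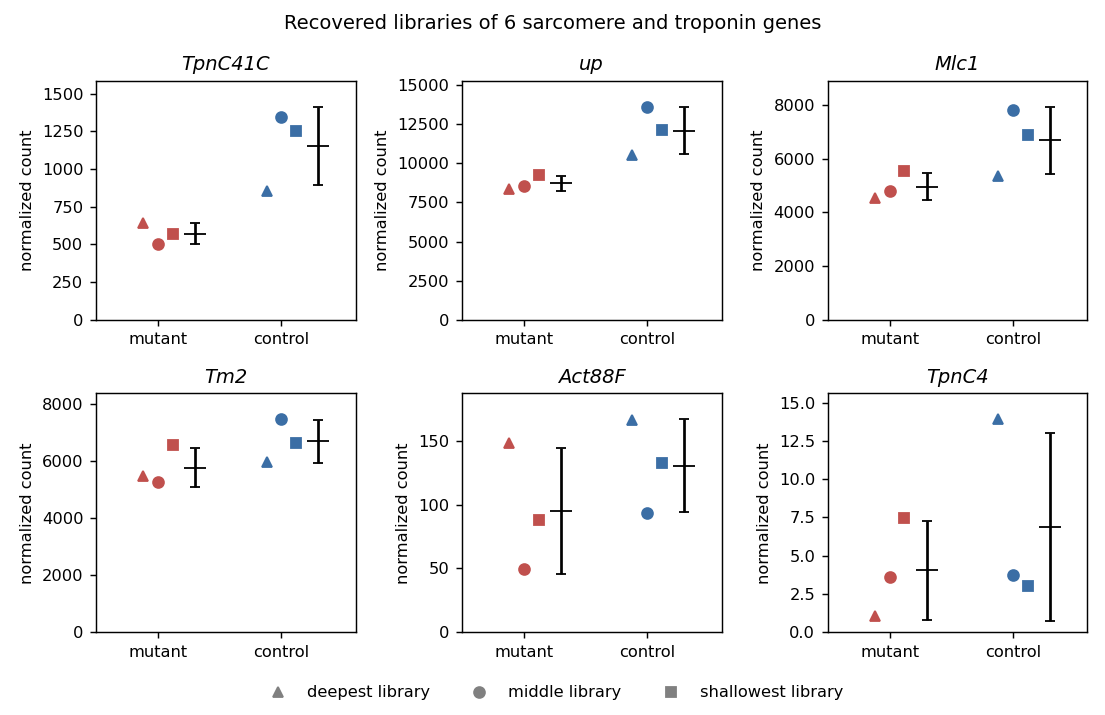
Normalized counts of 6 genes in the recovered mutant (red) and control (blue) libraries, each on a linear axis that starts at 0, with marker shapes for the deepest, middle and shallowest library and black bars for the mean ± SD (n = 3). The mutant libraries of TpnC41C (502 to 639) and up (8348 to 9277) lie below all control libraries, while those of the other 4 genes overlap.

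Tropomyosin, the cover of the myosin-binding sites, comes from the neighbouring genes Tm1 and Tm2. Tm2 (3R from 15310193 to 15315197, plus strand) had 5490, 5280 and 6585 in the deepest, middle and shallowest mutant libraries, against 5982, 7492 and 6639 in those of the control. The shallowest mutant library lay above the deepest control library, so the groups overlapped. Its means were 5785 ± 701 and 6704 ± 757 (SD, n = 3), and the authors' deposited table gives -0.21 on the log2 scale, adjusted p = 0.844. Tm1 (3R from 15281371 to 15308779, plus strand, as the table gives it) makes muscle and non-muscle tropomyosins from many transcripts, 18 in the Ensembl annotation. The Tm1 mutant libraries had 8841, 11338 and 12443, a mean of 10874 ± 1845 (SD, n = 3). The control mean of 13240 fits 2 combinations of reads, with normalized counts of either 9092, 15654 and 14973 or 23654, 2177 and 13887 from the deepest to the shallowest library, so the groups overlap under either. For Tm1 the authors' deposited table has a log2 fold change of -0.28 (adjusted p = 0.878). The value was -0.02 after removal of the trend of fold change with gene length. Exons of Tm1 overlap l(3)neo43 on the other strand, a gene at 222 (mutant) and 244 (control) in the authors' means.

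The thick filament is built from the myosin heavy chain, an essential light chain and a regulatory light chain. Mhc (2L from 16766566 to 16788766, plus strand) encodes all muscle myosin heavy chains of the fly by alternative splicing, with 21 annotated transcripts. Its authors' means were 62976 in the mutant and 54647 in the control, and the authors' deposited table gives a log2 fold change of 0.20 (adjusted p = 0.834). Mlc2, the regulatory light chain gene (3R from 30171438 to 30174551, minus strand), had authors' means of 31309 and 38455, and -0.30 on the log2 scale (adjusted p = 0.903) in the authors' deposited table. So the heavy chain and its regulatory light chain had values of opposite sign, neither of which passed the test, and the difference between them was not tested.

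Mlc1, the essential light chain gene (3R from 27657078 to 27660177, minus strand), had 4557, 4801 and 5532 in the deepest, middle and shallowest mutant libraries. Its control libraries had 5348, 7832 and 6889. The deepest control library lay within the mutant range, and the other control libraries lay above it. The means were 4963 ± 507 and 6690 ± 1254 (SD, n = 3). For Mlc1 the authors' deposited table has a log2 fold change of -0.43 (adjusted p = 0.448). limma gave an adjusted p of 0.496, 0.0287 with the deepest libraries as a term, and 0.0679 with both left out. With that term limma called 3 of the 6 recovered genes lower (TpnC41C, up and Mlc1), where it called 16.7% of 11732 genes in either direction and 9.13% lower. Without it limma called 0 of the 6, with 1.02% of genes called, and 2 of the 6 at an unadjusted p under 0.05. The share of all genes at that unadjusted threshold in limma was not worked out. By the authors' unadjusted p, 2 of the 10 genes and 1344 of 11155 tested genes were under 0.05.

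The actin genes form the thin filament itself. Act57B, an actin of larval muscle and adult tubular muscle (2R from 20944021 to 20946431, plus strand), had nearly equal authors' means, 30936 (mutant) and 30619 (control). The authors' deposited table puts its log2 fold change at 0.01 (adjusted p = 0.994). This turned to -0.15 when the groups were scaled to equal totals, which lowers every log2 fold change by 0.16, and to -0.01 after removal of the length trend. Mhc stayed positive under both, at 0.04 and 0.47. Act88F, the flight muscle actin (3R from 15439969 to 15442177, plus strand), had 148, 49.6 and 87.8 in the deepest, middle and shallowest mutant libraries. In the control libraries it had 166, 93.0 and 133. The groups overlapped, and in each the deepest library was the highest. The means were 95.1 ± 49.6 and 131 ± 36.6 (SD, n = 3), and the authors' deposited table puts the log2 fold change at -0.45 (adjusted p = 0.873). Actin genes are close in coding sequence, so the split of reads between them is uncertain where reads fit more than 1 gene.

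Levels can be compared between genes as normalized counts per kb of exon. Here the order from high to low in the mutant was Act57B (17944), Mlc2 (13696), Mhc (6953), Mlc1 (3510), up (3446), Tm2 (2214), Tm1 (1149), TpnC41C (304), Act88F (59.6) and TpnC4 (4.75). The control had the same order except that up (4780) stood just above Mlc1 (4731). The libraries of up and Mlc1 overlapped in both groups, from 3299 to 3667 and from 3222 to 3912 per kb in the mutant, so these neighbours did not differ beyond their spread. The other neighbours with recovered libraries did not overlap, such as TpnC41C (267 to 340 per kb in the mutant) and Act88F (31.1 to 92.8). The spread of Act57B, Mlc2 and Mhc is unknown. Exon lengths pool all transcripts, so the level per kb is understated for genes with many alternative exons, such as Mhc and Tm1.

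The flight muscle genes stood at the foot of this order. Act57B was 301-fold above Act88F per kb in the mutant and 217-fold in the control. TpnC41C was 63.9-fold above TpnC4 per kb in the mutant and 75.7-fold in the control. Of the other flight muscle markers, the thick filament gene fln (flightin) had authors' means of 32.4 (mutant) and 30.3 (control). The kinase gene Strn-Mlck, which is long, had authors' means of 2990 and 3445, or 91.2 and 105 per kb, between Act88F and TpnC41C. Summed over all 4 flight muscle markers (Act88F, TpnC4, fln and Strn-Mlck), normalized counts were 2476 to 4356 per mutant library and 2801 to 4780 per control library, and 0 of the 4 changed. Most of each sum is Strn-Mlck.

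**Figure D2:**
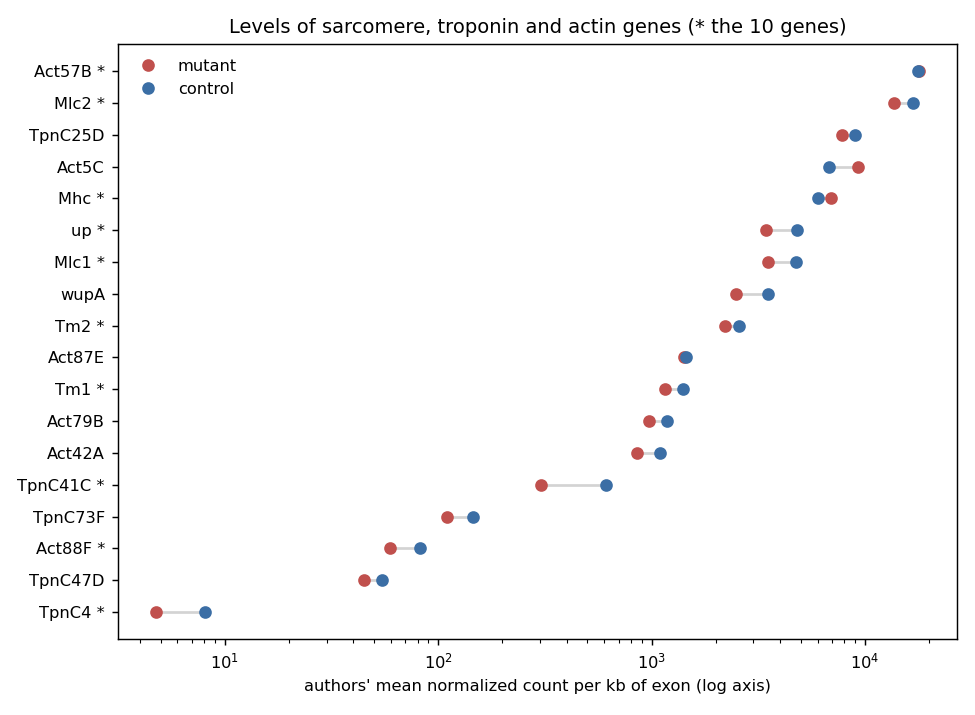
Authors' mean normalized counts per kb of exon, on a log axis, for the 10 genes (asterisks) and the other troponin and actin genes, in mutant (red) and control (blue). The genes span from 4.75 (TpnC4) to 17944 (Act57B) in the mutant, and the widest gap between the groups on this axis is that of TpnC41C, 304 against 614.

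The other troponin genes were lower in value too, but 0 of 4 passed the test, where 1.89% of tested genes were called lower. Their median log2 fold change was -0.34. Troponin I is encoded by wupA, which lies on X from 18105568 to 18116922 (minus strand), 11296 bases from mir-210 (X from 18128219 to 18128318, plus strand). wupA had normalized counts of 4834, 4543 and 5387 in the deepest, middle and shallowest mutant libraries, against 6065, 8098 and 6678 in those of the control, with no overlap. The authors' deposited table puts its log2 fold change at -0.50 (adjusted p = 0.185). limma with the deepest libraries as a term, which called 16.7% of all genes, gave wupA an adjusted p of 0.0176. With both left out, where limma called 7.13%, it was 0.0635. TpnC73F also did not overlap, with 116, 122 and 110 in mutant libraries against 133, 176 and 154 in control libraries (-0.41 in log2 and adjusted p = 0.568 by the authors' deposited table). TpnC47D and TpnC25D did overlap, and the authors' deposited table lists them at -0.27 (adjusted p = 0.928) and -0.20 (adjusted p = 0.943). So 2 of the 4 lay wholly below the control, as did 9.13% of all recovered genes tested.

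TpnC25D was by far the most abundant troponin C transcript per kb, with 94.4% of the family's summed level in the mutant and 91.6% in the control. Exons of TpnC25D overlap tkv on the other strand, which had authors' means of 1122 and 1211. TpnC41C came next, with 5.55%, 3.10% and 3.01% of the family in the deepest, middle and shallowest mutant libraries, against 7.40%, 6.55% and 5.47% in those of the control. These shares overlapped between the groups. Among the 4 troponin C genes other than TpnC25D, the share of TpnC41C was 68.0%, 63.1% and 65.3% in mutant libraries against 71.5%, 76.2% and 75.2% in control libraries, with no overlap. This grouping was chosen after the values were seen.

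TpnC41C was also set against the other 5 recovered genes in the same library. The groups did not overlap in 3 of these 5 ratios, those over up, Mlc1 and Tm2, and each was lower in the mutant. Its level per kb over that of up was 0.103, 0.0792 and 0.0829 in the deepest, middle and shallowest mutant libraries, against 0.110, 0.133 and 0.139 in those of the control. Its level over that of Mlc1 was 0.105, 0.0787 and 0.0777 in the mutant and 0.121, 0.130 and 0.137 in the control. In both ratios the deepest libraries were the nearest to each other. The ratio over wupA did not overlap either. The ratio over Act88F did, with 3.66, 8.59 and 5.52 in the mutant against 4.38, 12.3 and 8.04 in the control, as did that over TpnC4, which had few reads. Of the 10 ratios among the other recovered genes, 1 did not overlap, Tm2 over up, which was higher in the mutant (0.637, 0.600 and 0.687 against 0.550, 0.534 and 0.529). Tm2 over wupA was also higher in every mutant library, while up over wupA overlapped, at 1.35, 1.47 and 1.35 in the mutant and 1.36, 1.31 and 1.42 in the control. Such ratios do not depend on library scaling. The ratios of TpnC41C all share that gene, the lowest of the 10 in log2 fold change, so they are not separate results. All the ratios were added after the values were seen and were not tested. The share of ratios without overlap was not worked out over all gene pairs, so these counts have no background. For single genes, 18.5% of the recovered genes tested did not overlap in either direction.

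**Figure D3:**
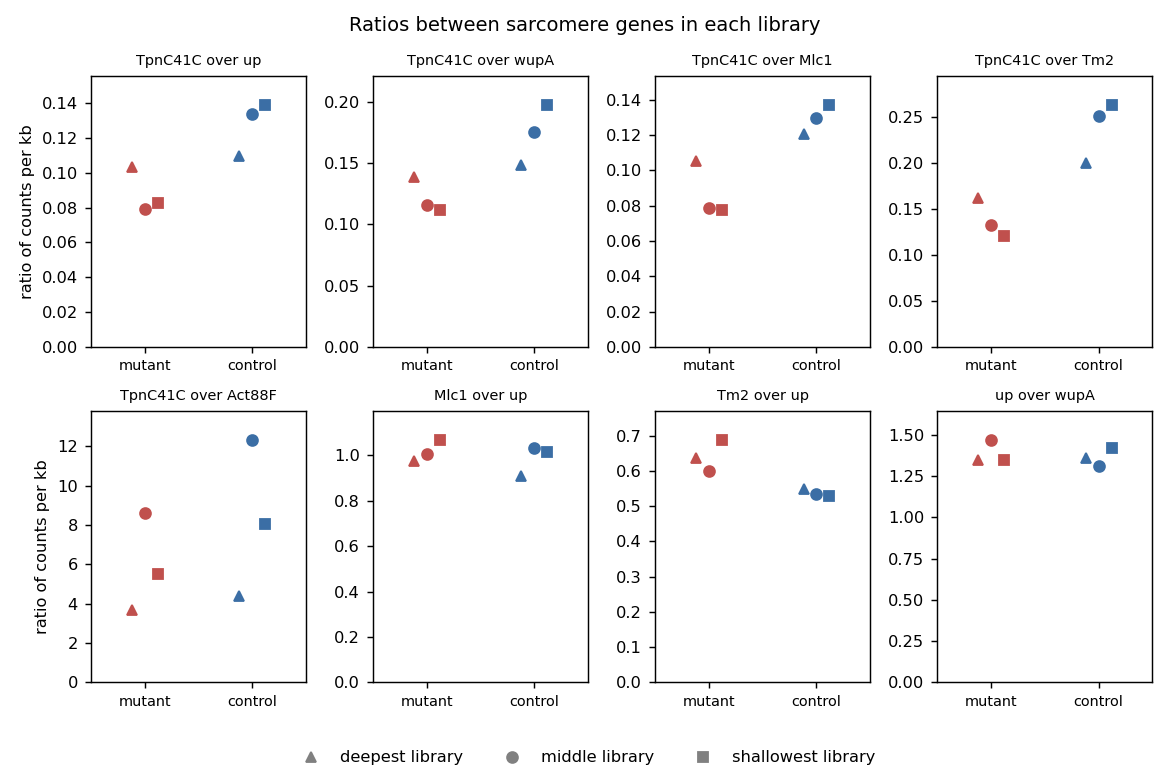
Ratios of normalized counts per kb between pairs of genes in each recovered library, mutant (red) and control (blue), on linear axes that start at 0, with marker shapes for library depth. TpnC41C over up (0.0792 to 0.103 against 0.110 to 0.139), wupA, Mlc1 and Tm2 is lower in every mutant library and Tm2 over up is higher in every one (0.600 to 0.687 against 0.529 to 0.550), while TpnC41C over Act88F, Mlc1 over up and up over wupA overlap.

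The rest of the muscle machinery was described from lists of other actins, thick filament proteins, titin-like proteins, Z-disc proteins, capping proteins, calcium and energy genes, attachment proteins, regulators and non-muscle myosin. With the 4 troponin genes above these hold 56 genes, all tested. Only Gpdh rose, a glycerol-3-phosphate dehydrogenase gene of flight muscle and fat metabolism, with authors' means of 24823 (mutant) and 16352 (control) (0.60 in log2 and adjusted p = 0.0344 by the authors' deposited table), and 0 fell. Thus 1 of 56 changed where 4.46% of tested genes changed in either direction, 2.56% higher and 1.89% lower. The median log2 fold change of the 56 was -0.12. The libraries of Gpdh could not be recovered, and Gpdh is also expressed outside muscle. Among the 51 genes of these lists that were recovered, 3 had all mutant libraries below the control (wupA, TpnC73F and the Z-disc gene Mlp60A) and 3 had all above (the myosin chaperone gene unc-45, the Z-disc gene Zasp66 and the actin assembly gene DAAM), none of which passed the test. Among all recovered genes tested, 9.13% lay wholly below the control and 9.4% wholly above.

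By role, the medians of the log2 fold change lay between -0.34 for the other troponins and 0.26 for calcium handling and energy genes. The other actins had values of -0.27 (Act79B), -0.04 (Act87E), -0.36 (Act42A) and 0.46 (Act5C, a cytoplasmic actin), and 0 of 4 passed. The 3 titin-like and M-line genes had a median of -0.21 and the 11 Z-disc genes one of -0.15, with 0 changed in either. The lowest values of the remaining genes were -1.16 for the splicing factor gene mbl, -0.98 for the calcium channel gene Ca-alpha1D and -0.46 for the Z-disc gene Zasp67. The highest were 0.33 for the integrin gene if, 0.33 for the calcium release channel gene RyR and 0.31 for the arginine kinase gene Argk. None of these 6 passed in the authors' deposited table (adjusted p from 0.683 to 0.963). With the deepest libraries as a term, limma called 4 of the 51 recovered genes lower, wupA, mbl, Ca-alpha1D and the thin filament capping gene tmod, where it called 9.13% of all genes lower. Without the term it called 0 of the 51 and 1.02% of all genes, with 1 of the 51 at an unadjusted p under 0.05. For that unadjusted limma count the share of all genes was not worked out. By the authors' unadjusted p, 3 of the 56 genes and 1344 of 11155 tested genes were under 0.05.

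**Figure D4:**
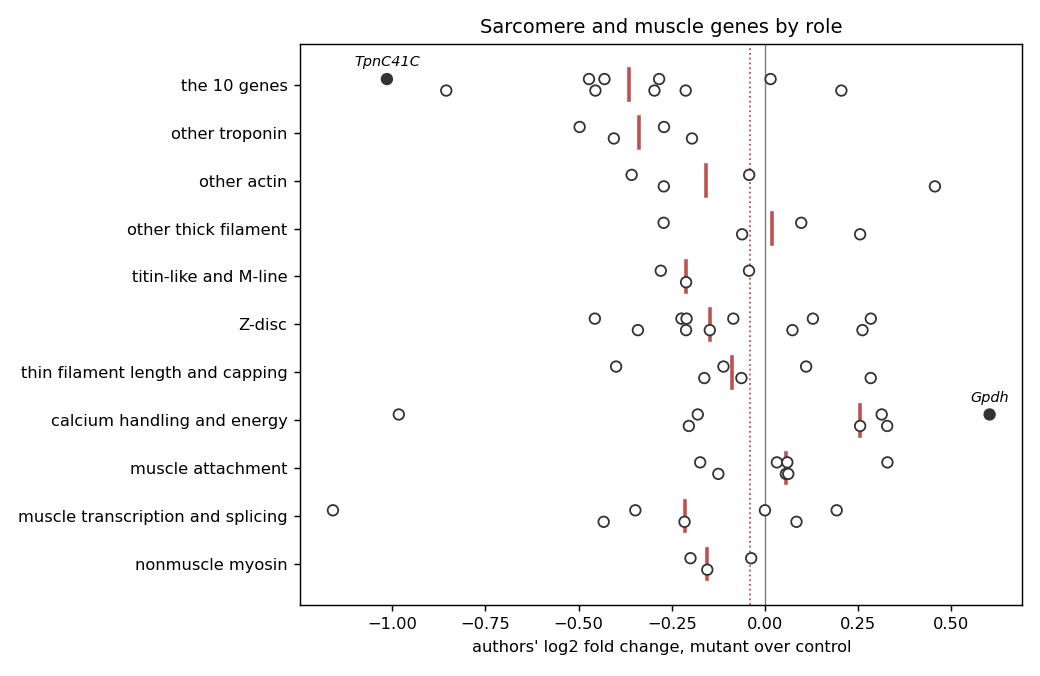
Authors' log2 fold changes, mutant over control, of the 10 genes and of 56 other muscle genes by role, with filled points for an adjusted p under 0.05 in the authors' deposited table, red bars for the median of each row and a dotted line for the median of all tested genes (-0.04). TpnC41C (-1.01) and Gpdh (0.60) are the filled points, and the 10 genes have a median of -0.36.

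The separate sets of libraries gave the same sign for most of these genes but not the same size. Of the 6 recovered genes, the 5 other than TpnC4 were lower in the mutant within the deepest pair and within the other 4. For the 6 genes together the median log2 ratio was -0.28 within the deepest pair and -0.52 within the other 4. For Act88F it was -0.17 and -0.72, and for Mlc1 -0.23 and -0.51. The thick filament gene Prm (paramyosin), by contrast, had -0.10 and -0.04. The 51 recovered genes of the other lists had medians of -0.09 and -0.17.

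**Figure D5:**
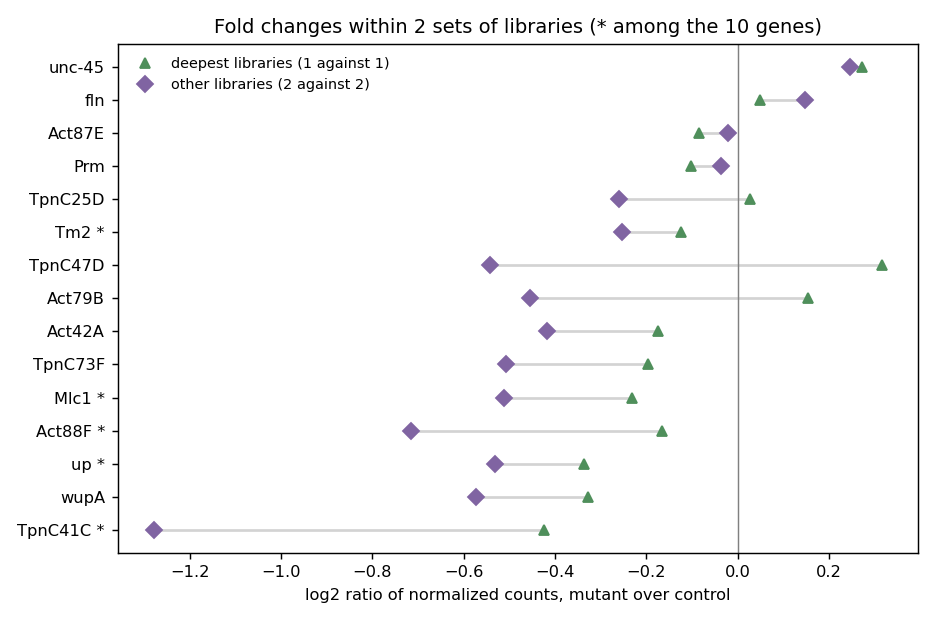
Log2 ratios of normalized counts, mutant over control, within the deepest library of each group (triangles) and within the other 4 libraries (diamonds), for recovered genes of the sarcomere and for other troponin, actin and thick filament genes. TpnC4, with few reads, is not plotted. Of the genes shown, TpnC47D (0.32 and -0.54) and TpnC41C (-0.42 and -1.28) have the widest gaps between both sets, and TpnC41C is below 0 in each.

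Some markers of other head cell types also differed between the genotypes, where 1.89% of all tested genes were called lower and 2.56% higher. Of 6 photoreceptor markers 5 fell, with summed authors' means of 376513 (mutant) and 1062010 (control). Their libraries were recovered for norpA alone, from 2302 to 7299 and from 7149 to 22224. Of 7 fat body markers 3 rose (Lsp2, Yp2 and Yp3), with summed authors' means of 2825240 and 1369010 over all 7. Fbp1 was the only negative one, with a log2 fold change of -1.57 at authors' means of 2.98 and 9.17. The 3 recovered fat body markers (Lsp2, Fbp1 and to) summed to 778 to 8994 per mutant library and 1249 to 4548 per control library. Of 5 neuron markers 0 changed, with a median log2 fold change of -0.71 and summed normalized counts of 7644 to 22438 in the mutant and 14447 to 37798 in the control. Of 5 glial markers 1 fell, alrm (log2 fold change -0.79), while the median of the 5 was 0.08. The 4 recovered glial markers summed to 8841 to 12220 and 10901 to 12908. Of 4 hemocyte markers 1 fell, NimC1 (-4.20), while Hml (0.67), He (0.60) and srp (0.41) were positive and did not pass the test. The 4 summed to 7599 to 10594 and 6182 to 7696. Of 2 tested heart tube markers 1 rose, prc (1.25). The other heart tube markers were near the floor, with authors' means of 1.77 and 1.58 for tin and 5.03 and 4.51 for Hand. All 3 summed to 46.1 to 81.1 and 27.3 to 35.9. The 4 tubular muscle markers had summed authors' means of 33200 (mutant) and 33832 (control), nearly equal, and most of each sum is Act57B. TpnC41C was the only 1 of the 4 that fell. The 3 recovered ones (Act79B, TpnC41C and TpnC73F) summed to 2136 to 2387 per mutant library and 2457 to 3933 per control library. These sums include TpnC41C itself. Of the other markers in them, Act79B overlapped between the groups and TpnC73F did not. No marker was at 0 in either group mean. The part of these shifts in the values of the 10 genes was not tested.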

How the data were processed

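RNA of adult fly heads was sequenced in 3 mutant and 3 control samples. The submitters' processing notes name FastQC, HISAT2, featureCounts, DESeq and build dm6 with no role or version, and strandedness is not given in the sources used here. The deposited table holds group means, a signal made by the authors from counts divided by size factors, with their log2 fold change, p-value and adjusted p per gene, also by the authors, per the file headers. Adjusted values below 1 match the Benjamini-Hochberg method applied to 11155 genes within 3.8e-15, and 2386 genes listed at 1 were treated as not tested. Calls are the authors', at an adjusted p under 0.05, in place of a count test planned for counts per sample. Gene positions, exon lengths and names are those of the deposited table, and 9 of the 10 genes have the same coordinates in Ensembl release 115, Tm1 being the exception.

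Means up to 40000 were searched for whole reads of 3 libraries that give the 15 printed digits. Means with exactly 1 combination were used, 13375 of 13435 searched in the mutant and 13311 of 13469 in the control, and 13305 genes (98.3%) were recovered in all libraries. limma 3.58.1 in R 4.3.3 (trend, robust) was run on log2(normalized count + 1) of recovered genes with a mean of at least 1, where folds of low genes are understated. Both steps were run on simulated data that differ from these data. The simulated search covered only the lower part of the range of means. The simulated fold changes for limma were larger than that of TpnC41C, without a difference of the deepest libraries. So these runs do not show how well limma finds changes of the size seen here. Recovered libraries carry no replicate number. The length trend was a lowess fit (span 0.3, statsmodels 0.14.6). The 10 genes and the lists were chosen with earlier results of these data known. Named genes were the 10, every listed gene that changed, the other troponin and actin genes, the 3 highest and 3 lowest of the rest, and markers. No sequences were used here.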

Additional observations from a re-analysis of the deposited data

How the results depend on the processing

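TpnC41C was called at adjusted p thresholds of 0.05, 0.01 and 0.1, with no filter on low values and with a mean of at least 100 in 1 group, so the number of changed genes among the 10 stayed at 1 there. It was 0 in limma on the 6 recovered genes, with pseudocounts of 1, 0.5 and 5, without a filter, with a mean of at least 100 (5 genes, TpnC4 being too low), with equal totals and with a trimmed mean of M values, each with 2 at an unadjusted p under 0.05. It was 3 with the deepest libraries as a term and 1 with both left out, in fits that called 16.7% and 7.13% of all genes against 1.02% without either change. With each library left out in turn it ranged from 0 to 0, with 1 to 3 at an unadjusted p under 0.05. The number among the other 56 muscle genes was 1, and 0 at an adjusted p under 0.01. It was 0 in the same 7 limma fits (1 to 2 at an unadjusted p under 0.05), 4 with the deepest libraries as a term, 1 with both left out, and from 0 to 0 with each library left out (0 to 4 unadjusted). No share of all genes was worked out for these unadjusted limma counts, and limma leaves out Gpdh, which could not be recovered. The cause of the other differences was not tested. The median log2 fold change of the 10 genes, -0.36, lay between -0.52 and -0.32 under 4 other scalings, and that of the 6 recovered genes, -0.46, between -0.52 and -0.28 within or without single libraries. Leaving out 1 library moved TpnC41C between -1.19 and -0.89, up between -0.56 and -0.38, Mlc1 between -0.57 and -0.30, Tm2 between -0.32 and -0.13 and Act88F between -0.93 and -0.15. TpnC4 moved between -1.56 and 0.27. No paired analysis was possible because the recovered libraries carry no replicate number. Depth limits TpnC4, and Act88F with 41 to 286 reads per library.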
